A study of Mus musculus with 17 samples.

Results

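Superoxide dismutases, catalase, glutathione peroxidases and peroxiredoxins remove superoxide and hydrogen peroxide from cells. This account describes the mRNA of 10 of these enzymes in mouse kidney: the superoxide dismutases Sod1, Sod2 and Sod3, the catalase gene Cat, the glutathione peroxidases Gpx1, Gpx3 and Gpx4, and the peroxiredoxins Prdx1, Prdx3 and Prdx5. They were chosen by name, and each was found once among the 42794 genes of the deposited expression table. All 10 were well above the low-value filter (an FPKM of at least 1 in at least 4 libraries) that 13279 genes passed. FPKM counts sequenced fragments relative to gene length (in kilobases) and to library size.

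Kidney RNA was sequenced in 17 libraries of 3 groups, in a study of glucagon action on lipid handling in diabetic kidney disease. The libraries labelled Gcgr shRNA (n = 7, titled DKD_shRNA) came from mice with a short hairpin RNA directed at the glucagon receptor gene Gcgr, which the series description places in proximal tubule epithelial cells. The Ctr shRNA libraries (n = 6) are titled DKD_Vehicle, so it is unclear if a control hairpin was given or no hairpin at all. The control libraries (n = 4, titled NC) are of genotype WT. The 2 shRNA groups share the DKD label that the control group lacks, so disease and hairpin cannot be told apart against control. Strain, sex and age, the means of producing disease and the delivery of the hairpin are not stated in the labels. Since no label assigns libraries to animals, p-values here reflect the spread among libraries, which may be technical.

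A library is named below by its group and the number in its title. Reads recovered from the FPKM values came to between 13997657 and 17107876 per library. Gcgr itself averaged 13.02 ± 1.70 FPKM in the libraries labelled Gcgr shRNA (SD, n = 7), 9.74 ± 2.14 FPKM in Ctr shRNA (n = 6) and 20.8 ± 2.42 FPKM in control (n = 4). In whole-kidney RNA it was thus not lowest in the libraries whose label names it, and each direction given for them below is for libraries so labelled. All 15 markers of the proximal tubule passed the filter, and their summed level was 21021 to 43645 FPKM in the libraries labelled Gcgr shRNA, 15341 to 34308 FPKM in Ctr shRNA and 32200 to 43587 FPKM in control. The library Ctr shRNA 20 stands apart, with a summed level of 6 fat cell markers of 681.7 FPKM and of 5 urothelial markers of 170.3 FPKM. Its sums of principal cell (948.3 FPKM) and smooth muscle and fibroblast markers (60.6 FPKM) were also the highest of the 17 libraries. Those of proximal tubule (15341 FPKM) and thick ascending limb markers (464.5 FPKM) were the lowest. The sums of fat cell markers ran up to 46.5 FPKM in the libraries labelled Gcgr shRNA and up to 24.9 FPKM in control, and those of urothelial markers up to 9.97 FPKM in the libraries labelled Gcgr shRNA and up to 5.96 FPKM in control. The medians over the Ctr shRNA group were 14.6 and 3.26 FPKM. Results of the 10 genes that turn on that library, or on Gcgr shRNA 31, are given with and without it.

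Superoxide, a by-product of mitochondrial respiration and the product of NADPH oxidases, is turned into hydrogen peroxide by superoxide dismutases. Catalase splits peroxide inside peroxisomes, organelles that are abundant in the proximal tubule. Glutathione peroxidases reduce peroxides with glutathione, and peroxiredoxins do so mostly with thioredoxin. Gpx3 encodes the secreted glutathione peroxidase of blood plasma, which is made largely by the kidney's proximal tubule.

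The 3 glutathione peroxidases measured here are selenoproteins. Their mRNAs carry an in-frame TGA that is read as selenocysteine, the residue of the active site, where TGA otherwise ends translation. The windows below show that codon in capitals in the annotated GENCODE transcripts, with 30 bases each on the plus strand of GRCm38. Gpx6, another gene of the family that is not among the 10, is shown because it has a cysteine codon there and comes up again below. The codon is codon 73 of Gpx3 (chromosome 11, 54907256 to 54907258), codon 47 of Gpx1 (chromosome 9, 108339451 to 108339453), codon 73 of Gpx4 (chromosome 10, 80054737 to 80054739) and codon 73 of Gpx6 (chromosome 13, 21313777 to 21313779).
Gpx3: aacgtagccagctacTGAggtctgacagac
Gpx1: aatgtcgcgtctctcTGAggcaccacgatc
Gpx4: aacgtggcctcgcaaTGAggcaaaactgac
Gpx6: aacgtggcatccttcTGTggcctgacagct
Of the 27 bases around the codon, Gpx4 shares 16 with Gpx3 and Gpx1 shares 12, both placed by their annotated selenocysteine. Gpx6 shares 19, but its window was placed at the in-frame position most like that of Gpx3. Its count is thus high by choice and cannot be set against the other counts. Translation of the 3 selenoprotein mRNAs ends at another stop codon, TAA in Gpx3 and Gpx1 and TAG in Gpx4.

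Gpx3 (ENSMUSG00000018339, GRCm38 chromosome 11, 54902453 to 54910377, plus strand) stood far above the other enzymes. It made up a median of 80.1% of the summed FPKM of the 10 genes in the libraries labelled Gcgr shRNA, 78.4% in Ctr shRNA and 76.5% in control. It alone took 3.36 to 4.47% of all FPKM in the libraries labelled Gcgr shRNA, 3.31 to 4.45% in Ctr shRNA and 2.86 to 3.41% in control. Across the libraries it ranked between 2 and 6 among all genes, below only Kap, a kidney androgen-regulated gene of the proximal tubule, the small RNA gene Gm23935 and the mitochondrial genes mt-Co1, mt-Cytb and mt-Nd1. At least 345216 reads per library stand behind its values.

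The libraries labelled Gcgr shRNA held 17686, 16546, 15344, 18213, 15594, 18070 and 17555 FPKM of Gpx3 (numbers 13, 15, 29, 31, 32, 34 and 35). The Ctr shRNA libraries held 18088, 19805, 15191, 17132, 14639 and 12020 FPKM (numbers 1, 4, 6, 8, 19 and 20). The control libraries held 13656, 12844, 12539 and 12256 FPKM (numbers 37, 38, 39 and 41). All libraries labelled Gcgr shRNA lay above all control libraries, and so did all Ctr shRNA libraries except number 20, which was below each control library.

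Gpx1 (ENSMUSG00000063856, chromosome 9, 108338903 to 108340343, plus strand), the glutathione peroxidase of cytosol and mitochondria, came next. It ran from 1643 to 1975 FPKM with a median of 1867 in the libraries labelled Gcgr shRNA, from 1490 to 2349 with a median of 1996 in Ctr shRNA, and stood at 1764, 1717, 1621 and 1647 in control. The 3 groups overlap, and the lowest and the highest library are both Ctr shRNA ones. Gpx4 (ENSMUSG00000075706, chromosome 10, 80047166 to 80056439, plus strand), which reduces lipid peroxides in membranes and holds back ferroptosis, ran from 451 to 1070.5 FPKM with a median of 583 in the libraries labelled Gcgr shRNA. It ran from 477 to 700.4 with a median of 549 in Ctr shRNA and stood at 514, 452, 422 and 529 in control. Its top value belongs to Gcgr shRNA 31, and the next in that group was 656.

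Cat (ENSMUSG00000027187, chromosome 2, 103453849 to 103485160, minus strand) ran from 317 to 429 FPKM with a median of 381 in the libraries labelled Gcgr shRNA. It ran from 283 to 479 with a median of 443 in Ctr shRNA and stood at 410.0, 434, 388 and 444 in control. The groups overlap, and the lowest library is Ctr shRNA 20, with the next of its group at 407 FPKM.

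Sod3 (ENSMUSG00000072941, chromosome 5, 52363791 to 52371418, plus strand), the dismutase secreted into the extracellular space, was at 158 to 204 FPKM with a median of 181 in the libraries labelled Gcgr shRNA. It was at 122 to 193 with a median of 172 in Ctr shRNA, and at 200.1, 193, 204 and 188 in control. The control libraries sit at the upper end, but both other groups reach into their range. Sod1 (ENSMUSG00000022982, chromosome 16, 90220754 to 90226329, plus strand), the copper-zinc dismutase of the cytosol, was at 113 to 163 FPKM with a median of 137 in the libraries labelled Gcgr shRNA, at 107 to 187 with a median of 131 in Ctr shRNA, and at 136, 141, 125 and 149.9 in control. Sod2 (ENSMUSG00000006818, chromosome 17, 13006846 to 13040063, plus strand), the manganese dismutase of the mitochondrial matrix, was at 28.8 to 32.9 FPKM with a median of 31.5 in the libraries labelled Gcgr shRNA, at 26.7 to 36.9 with a median of 33.7 in Ctr shRNA, and at 32.3, 34.7, 34.2 and 31.9 in control. For both genes the control values lie inside the Ctr shRNA range.

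The peroxiredoxins showed the same overlap. Prdx5 (ENSMUSG00000024953, chromosome 19, 6906697 to 6910106, minus strand), which works in mitochondria, peroxisomes and cytosol, was at 543 to 848 FPKM with a median of 707 in the libraries labelled Gcgr shRNA, at 576 to 849.9 with a median of 671 in Ctr shRNA, and at 635, 643, 622 and 662 in control. Prdx1 (ENSMUSG00000028691, chromosome 4, 116685544 to 116700822, plus strand), the main cytosolic peroxiredoxin, was at 238 to 317 FPKM with a median of 269 in the libraries labelled Gcgr shRNA, at 204 to 359 with a median of 299 in Ctr shRNA, and at 265, 262, 237 and 283 in control. Prdx3 (ENSMUSG00000024997, chromosome 19, 60864051 to 60874556, minus strand), the mitochondrial one, was at 133 to 172 FPKM with a median of 141 in the libraries labelled Gcgr shRNA, at 115 to 178 with a median of 167 in Ctr shRNA, and at 149.97, 140.1, 127 and 148 in control. Even Prdx3, the member with the fewest reads, had at least 2842 in each library, so counting error is small beside the spread between libraries.

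**Figure D1:**
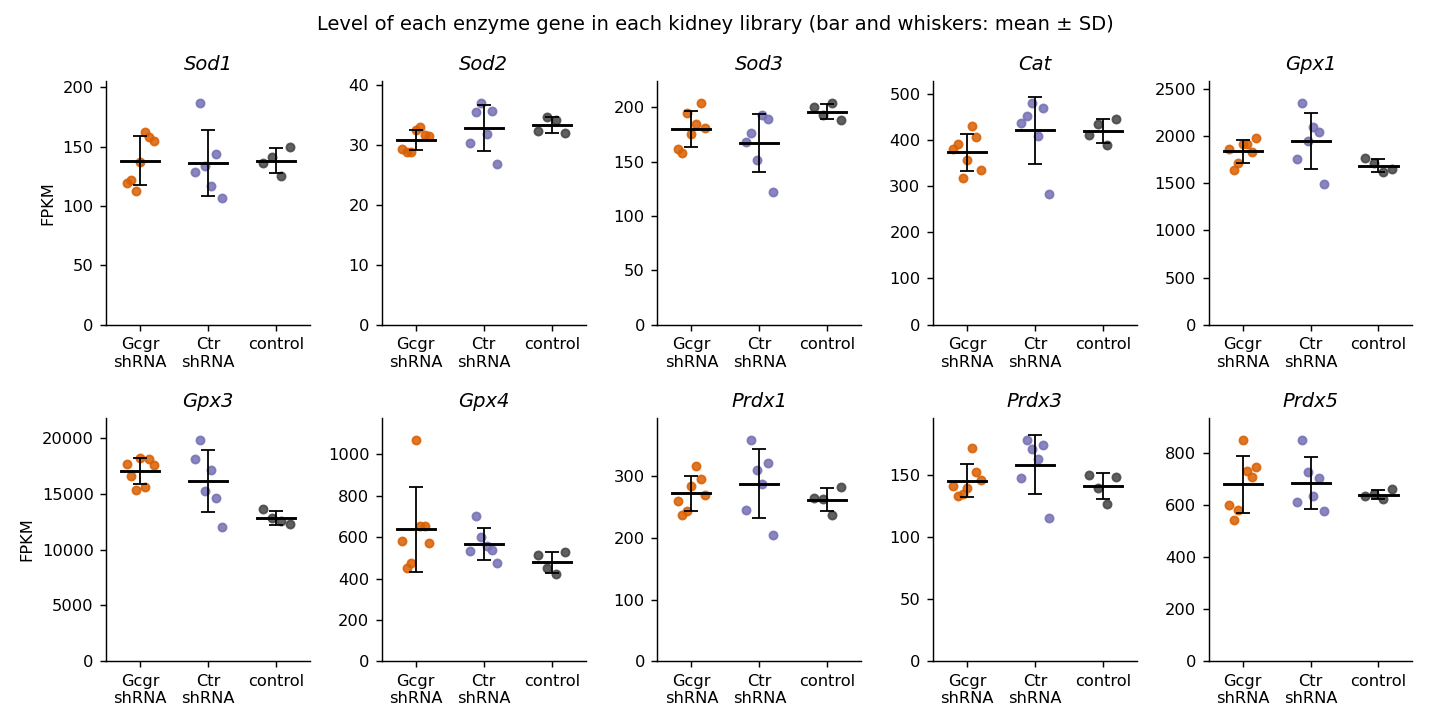
FPKM of each of the 10 genes (vertical axes, linear from 0) in every library, with a point per library and bars for the mean ± SD, for the libraries labelled Gcgr shRNA, Ctr shRNA and control from left to right. The 7 Gcgr shRNA points of Gpx3 lie between 15344 and 18213, above all control points, while for the other 9 genes the points of these groups overlap.

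By median FPKM over the 17 libraries the order was Gpx3, Gpx1, Prdx5, Gpx4, Cat, Prdx1, Sod3, Prdx3, Sod1 and Sod2. Neighbours were well apart at the top, where Gpx3 exceeded Gpx1 and Gpx1 exceeded Prdx5 in 17 of 17 libraries without overlap of their ranges. The ranges overlapped for Prdx5 over Gpx4 (16 of 17 libraries), Sod3 over Prdx3 (15 of 17) and Prdx3 over Sod1 (12 of 17), so these places in the order are not settled by the spread. For Gpx4 over Cat and Cat over Prdx1 the ranges overlapped although the order held in all 17 libraries.

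The order also depends on the gene length that FPKM divides by. In the deposited table that length is the union of all annotated exons, and for Sod1 it is 3970 bases, the length of an annotated transcript with a retained intron, against 641 bases for its principal coding transcript. Divided by the principal transcript, the median level of Sod1 becomes 845 FPKM in place of 136, and Sod1 moves from place 9 to place 5 of the 10, above Cat. Gpx4 (1724 against 959 bases), Prdx5 (2139 against 1262 bases) and Sod2 (10008 against 5861 bases) also gain, while the lengths of Cat, Sod3 and Prdx3 are the same either way. Gpx3, Gpx1, Prdx5 and Gpx4 keep places 1 to 4, and Sod2 stays in place 10 at 54.5 FPKM. Each level by principal transcript takes in all reads counted for the gene, retained introns included, so it can be too high. Comparisons of a gene between libraries do not depend on the length used.

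**Figure D2:**
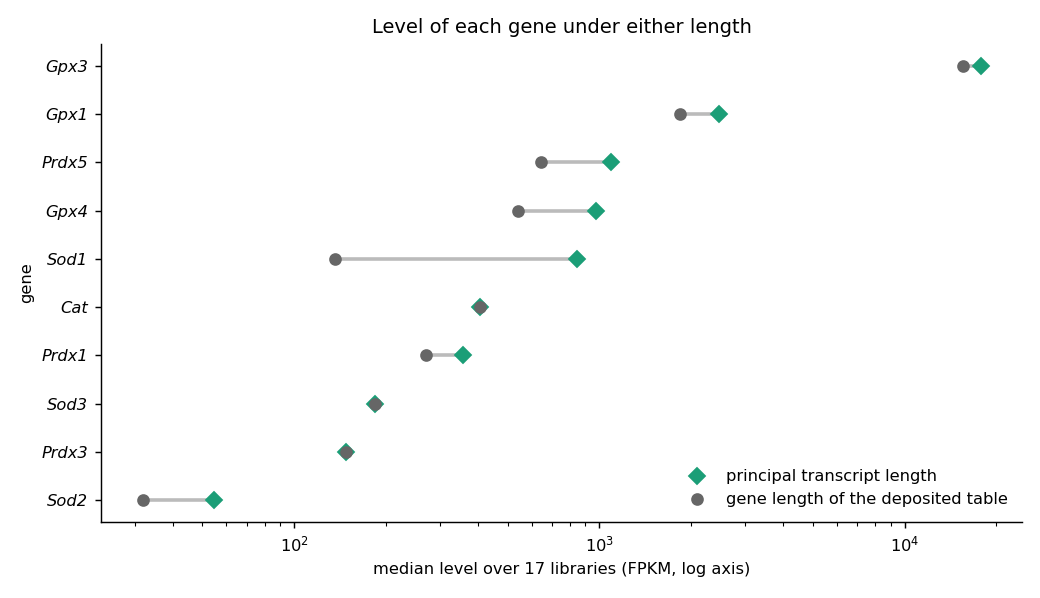
Median level over 17 libraries (horizontal log axis, FPKM) of each gene, computed with the gene length of the deposited table (circles) and with the length of its principal transcript (diamonds). The gap is widest for Sod1, at 136 and 845 FPKM.

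Near-identical copies may share reads with some members. Gpx4-ps2, a transcribed pseudogene that matches Gpx4 over 762 bases at 99.7% identity, was at 145.8 to 367.9 FPKM, and its reads amounted to 15.3 to 19.1% of those of Gpx4. Reads of Gm8566 amounted to 1.80 to 2.68% of those of Sod1, and reads of Gm21399 to 0.446 to 0.751% of those of Prdx1. For Sod2 the matches were short stretches in genes of another kind. Tmem245 matched it over 191 bases at 95.8% identity with reads of 23.0 to 43.8% of those of Sod2, and Rsf1 over 126 bases with 5.23 to 12.1%. These shares count all reads of Tmem245 and Rsf1, not those of the matching stretch. For Gpx4 the split of reads between gene and copy is uncertain. Adding the copy's reads to Gpx4 changed its differences between groups little, to log2 values of 0.24 for Ctr shRNA against control, 0.13 for the libraries labelled Gcgr shRNA against Ctr shRNA and 0.37 for the libraries labelled Gcgr shRNA against control. Sod1 overlaps Scaf4, and Prdx5 overlaps Trmt112, on the opposite strand, and no source used here says whether counting used strand. Scaf4 reached at most 8.59 FPKM and Trmt112 at most 33.7 FPKM.

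The first comparison, Ctr shRNA against control, sets kidneys with the DKD label against kidneys of genotype WT, whose labels name no hairpin. None of the 10 genes passed limma's test at a Benjamini-Hochberg adjusted p under 0.05, where 7.49% of all tested genes did (3.58% higher and 3.91% lower in Ctr shRNA). At an unadjusted p under 0.05 stood 2 of the 10, Gpx3 and Sod3, against 23.4% of all genes. Limma voom on the recovered reads also called none of the 10. No member separated the 2 groups without overlap, as did 10.1% of all genes. The difference was above 0 for 6 of the 10 genes, against 51.5% of all tested genes, with a median log2 fold change of 0.10, against 0.01 over all genes. It was above 0 for 9 of the 10, all but Sod3, with a median of 0.17, when Ctr shRNA 20 was left out. The median over all tested genes was then 0.01, and the share of them above 0 was not counted. That library was low in abundant genes generally, with a median deviation of -0.31 for the 528 tested genes of mean FPKM 100 or more. The count of 9 is thus not particular to the enzymes.

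Gpx3 averaged 16146 ± 2769 FPKM in Ctr shRNA (SD, n = 6) and 12824 ± 604 FPKM in control (n = 4), a log2 fold change of 0.32 ± 0.13 (SE) with a 95% interval from 0.03 to 0.60 and an adjusted p of 0.165 by limma. Without Ctr shRNA 20 the same gene had an adjusted p of 0.0317 by limma, and without both libraries that stand apart a log2 fold change of 0.40 with an adjusted p of 0.0295. With weights per library, limma gave an adjusted p of 0.0161. The call depends on how Ctr shRNA 20 is treated, a library picked out from these same data and the lowest of all in Gpx3. Sod3 averaged 167 ± 26.7 FPKM in Ctr shRNA and 196 ± 7.13 FPKM in control, a log2 fold change of -0.25 ± 0.11 (SE) with an interval from -0.49 to -0.01 and an adjusted p of 0.192. The log2 fold change of Sod3 was -0.16 without Ctr shRNA 20.

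Gpx4 averaged 568 ± 76.4 FPKM in Ctr shRNA and 479 ± 50.7 FPKM in control, and its interval ran from -0.15 to 0.63 on the log2 scale. For Gpx1 the interval ran from -0.04 to 0.43, for Prdx3 from -0.08 to 0.39, for Prdx1 from -0.16 to 0.39 and for Prdx5 from -0.18 to 0.35. Cat, Sod1 and Sod2 had log2 differences of -0.01, -0.04 and -0.03, and each sign turned without Ctr shRNA 20. Without that library the difference was 0.21 for Prdx1, 0.24 for Prdx3 and 0.13 for Prdx5, while without Ctr shRNA 4 it was 0.05 for Prdx1 and 0.02 for Prdx5. For Sod2 the interval from -0.20 to 0.14 leaves the least room, and for Sod1 it ran from -0.33 to 0.25.

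The second comparison, the libraries labelled Gcgr shRNA against Ctr shRNA, lies within kidneys of the DKD label that differ in their shRNA label. None of the 10 genes passed limma's test, and 0% of all tested genes did. At an unadjusted p under 0.05 stood 0 of the 10 genes and 7.32% of all genes, and voom called none of the 10 from recovered reads. No member separated the 2 groups, as did 0.203% of all genes. The difference was above 0 for 4 of the 10 genes, against 48.5% of all tested genes, with a median log2 fold change of -0.04. Without Ctr shRNA 20 that median was -0.10, against -0.01 over all tested genes.

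Gpx3 averaged 17001 ± 1178 FPKM in the libraries labelled Gcgr shRNA (SD, n = 7) and 16146 ± 2769 FPKM in Ctr shRNA (n = 6). The log2 fold change of 0.09 had an interval from -0.15 to 0.33, and it turned to -0.01 without both libraries that stand apart. Cat had the largest difference of the 10, at 373 ± 40.0 FPKM in the libraries labelled Gcgr shRNA and 421 ± 72.1 FPKM in Ctr shRNA. Its log2 fold change was -0.16 ± 0.11 (SE), with an interval from -0.39 to 0.08 and an adjusted p of 0.807 by limma. Without Ctr shRNA 20, where Cat was lowest, the log2 fold change was -0.27 and did not pass either. For Gpx4, at 638 ± 207 FPKM in the libraries labelled Gcgr shRNA and 568 ± 76.4 FPKM in Ctr shRNA, the log2 fold change of 0.12 turned to -0.01 without Gcgr shRNA 31. The interval of Sod2 ran from -0.23 to 0.06, that of Sod3 from -0.09 to 0.32 and that of Prdx1 from -0.30 to 0.17. All 10 intervals include 0. Without Ctr shRNA 20 the log2 differences were -0.15 for Gpx1, -0.14 for Sod2, 0.03 for Sod3, -0.16 for Prdx1 and -0.20 for Prdx3.

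The third comparison set the libraries labelled Gcgr shRNA against control, so it uses the same control libraries as the first. None of the 10 genes passed limma's test, where 2.02% of all tested genes did (1.42% higher and 0.595% lower in the libraries labelled Gcgr shRNA). At an unadjusted p under 0.05 stood 1 of the 10, Gpx3, against 16.2% of all genes, and limma voom called none of the 10. Gpx3 was also the only one of the 10 whose groups did not overlap, which held for 5.54% of all genes in either direction and for 3.31% with the libraries labelled Gcgr shRNA higher. The difference was above 0 for 6 of the 10 genes, against 48.8% of all tested genes, with a median log2 fold change of 0.05.

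Gpx3 averaged 17001 ± 1178 FPKM in the libraries labelled Gcgr shRNA and 12824 ± 604 FPKM in control. The log2 fold change was 0.40 ± 0.13 (SE), with an interval from 0.13 to 0.68, an unadjusted p of 0.00638 and an adjusted p of 0.129 by limma. Here too the call depends on the spread that the fit assumes. Limma's adjusted p was 0.0315 when only these 2 groups entered the fit, 0.0388 when Ctr shRNA 20 was left out and 0.0116 with weights per library. In the first comparison, with only its own 2 groups in the fit, Gpx3 did not pass.

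Gpx4 averaged 638 ± 207 FPKM in the libraries labelled Gcgr shRNA and 479 ± 50.7 FPKM in control, a log2 fold change of 0.36 with an interval from -0.01 to 0.74 and an adjusted p of 0.323 by limma. Without Gcgr shRNA 31 that log2 fold change was 0.23. Cat differed by -0.17, with an interval from -0.44 to 0.09, and Sod3 by -0.13, with an interval from -0.36 to 0.10. The log2 differences of the remaining 6 genes lay between -0.11 for Sod2 and 0.12 for Gpx1.

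**Figure D3:**
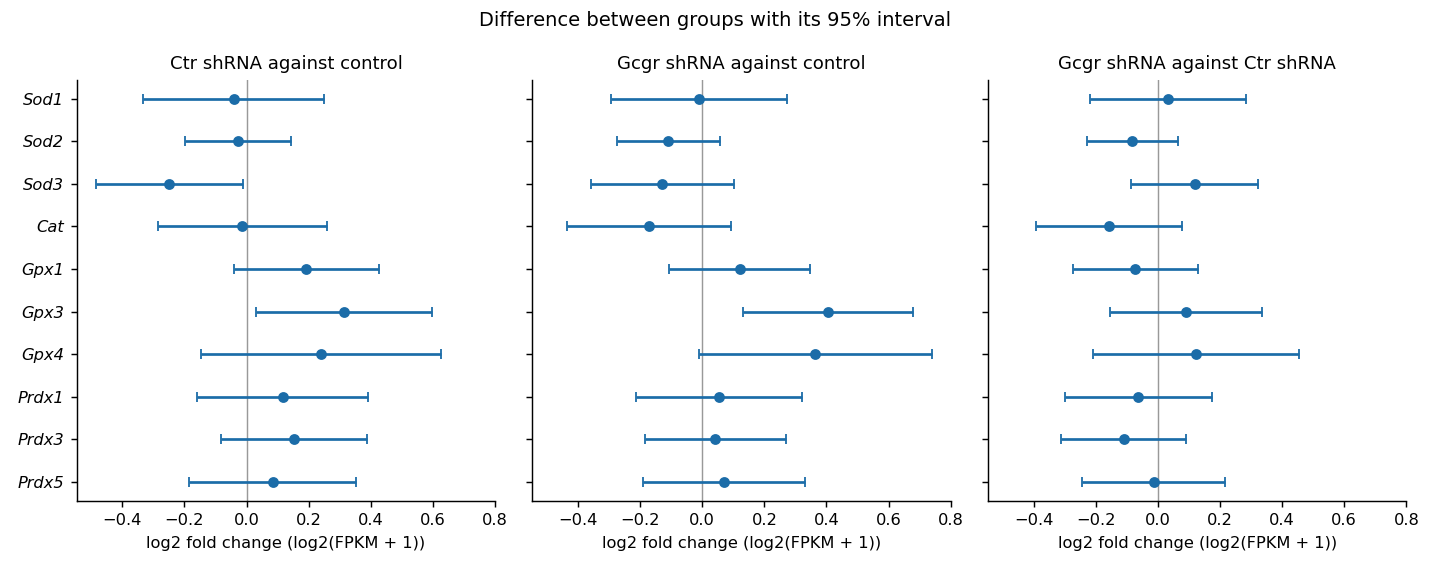
Log2 fold change of each gene on the log2(FPKM + 1) scale (horizontal axis) with its 95% interval, in 3 panels for Ctr shRNA against control, the libraries labelled Gcgr shRNA against control, and the libraries labelled Gcgr shRNA against Ctr shRNA. Gpx3 lies furthest to the right in both panels against control, at 0.32 and 0.40, and all 10 intervals of the panel between the shRNA groups include 0.

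Markers of some kidney cell types differed between the groups as well. In bulk kidney RNA, fewer cells of a type and less RNA per cell cannot be told apart. In Ctr shRNA against control, 0 of 15 proximal tubule markers were higher and 7 were lower by limma's adjusted p, with a median log2 fold change of -0.49. Among them Miox, which opens the ring of myo-inositol, averaged 609 FPKM in Ctr shRNA and 1051 FPKM in control. Markers of other nephron segments were lower too, 5 of 7 of intercalated cells (median -0.65) and 3 of 5 of principal cells (-0.52). So were 3 of 7 of the thick ascending limb (-0.57) and 1 of 5 of the distal convoluted tubule (-0.39). None passed of 4 podocyte (median -0.04), 6 endothelial (0.11), 5 smooth muscle and fibroblast (-0.14) and 3 neutrophil markers (-1.12). Nor did any of 6 red blood cell (-0.21), 4 fat cell (0.93) and 3 urothelial markers (0.76). In the libraries labelled Gcgr shRNA against control the proximal tubule median was -0.32, with Miox alone passing. There 3 principal cell and 2 intercalated cell markers were lower and 2 macrophage markers higher, against 0.595% and 1.42% of all tested genes. Of 7 macrophage markers tested, 3 were higher and 1 lower in Ctr shRNA than in control. Their summed level was 273 to 433 FPKM in the libraries labelled Gcgr shRNA, 204 to 498 FPKM in Ctr shRNA and 174 to 210 FPKM in control. With weights per library, 10 proximal tubule and 6 intercalated cell markers were lower in Ctr shRNA than in control. So were 3 principal cell, 3 thick ascending limb and 2 distal convoluted tubule markers. Macrophage markers then had 6 higher and 1 lower, while 1061 of 13279 tested genes were higher and 1026 lower. The part of these marker shifts in the values of the 10 enzymes was not tested.

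Ratios of 2 members within a library do not depend on how libraries were scaled. The pairs were chosen after the levels had been seen, so the ratios are a description only. Gpx3 over Sod3, the pair of secreted enzymes, ran from 78.9 to 110 with a median of 96.8 in the libraries labelled Gcgr shRNA, from 77.2 to 112 with a median of 99.4 in Ctr shRNA, and from 61.5 to 68.2 with a median of 65.9 in control. Both shRNA groups lay wholly above control in this ratio, Ctr shRNA 20 included. Of the members, Gpx3 and Sod3 had the largest rise and fall in Ctr shRNA against control, so the separation is partly built into the choice. Gpx3 over Gpx1 ran from 8.15 to 10.1 in the libraries labelled Gcgr shRNA, from 7.18 to 10.3 in Ctr shRNA and from 7.44 to 7.74 in control, so there only the libraries labelled Gcgr shRNA cleared the control range. Cat over Prdx1 had medians of 1.36 in the libraries labelled Gcgr shRNA, 1.44 in Ctr shRNA and 1.605 in control, with overlapping ranges. Prdx3 over Sod2 had medians of 4.68, 4.89 and 4.34 in that order of groups, with overlapping ranges too.

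The spread within groups had a common part. Ctr shRNA 20 was the lowest of the 17 libraries for 8 of the 10 genes and below the mean over libraries for all 10, with a median deviation of -0.35 on the log2 scale. Ctr shRNA 4 was the highest for 6 of the 10, with a median deviation of 0.33. These shifts were not particular to the enzymes, since the 528 tested genes with a mean of at least 100 FPKM had median deviations of -0.31 in Ctr shRNA 20 and 0.28 in Ctr shRNA 4. Over all tested genes the medians were -0.03 and 0.02.

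Gcgr shRNA 31 departed in another way. Its Gpx4 level of 1070.5 FPKM was 1.85 times the median of the other 6 libraries of its group, a ratio above that of 98.3% of tested genes. Gpx4-ps2 was 1.68 times higher there, at 367.9 FPKM against a median of 220 FPKM in the others, and Prdx5 was 1.30 times higher. Gpx1, Gpx3, Sod1, Sod2, Sod3, Cat, Prdx1 and Prdx3 lay between 0.921 and 1.07 times the others' median in that library.

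**Figure D4:**
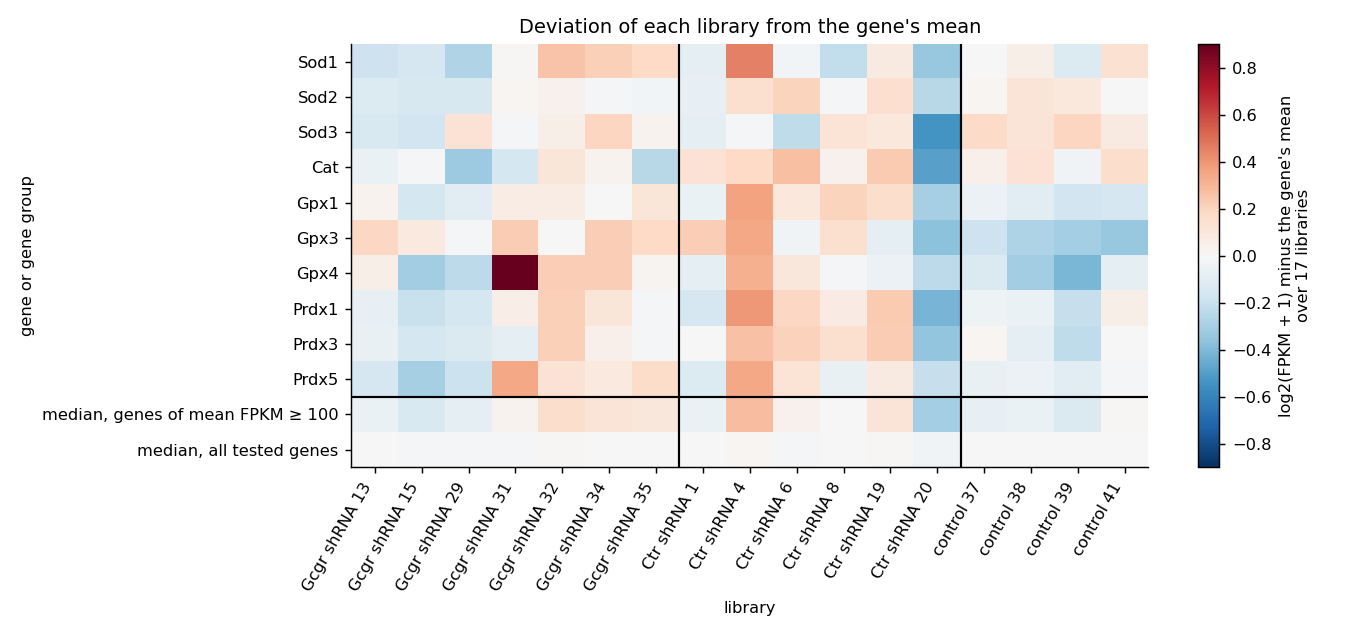
Deviation of log2(FPKM + 1) from each gene's mean over the 17 libraries (colour), for the 10 genes and, under the line, the median over gene groups, with libraries in columns from the Gcgr shRNA to the Ctr shRNA to the control ones. Ctr shRNA 20 is below the mean in all 10 genes and Ctr shRNA 4 above it in 9, and Gpx4 stands out in Gcgr shRNA 31.

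The genes whose profiles over the 17 libraries were nearest to each member were found by the root mean square difference of centred log2(FPKM + 1) values. All genes share the scaling of each library, so the likeness is a description. Prdx1 was nearest to Atp5f1, a subunit of ATP synthase (0.05, against a spread of Prdx1 itself of 0.19). Next came Sdhc, a subunit of succinate dehydrogenase, and Txndc17 (0.06). Prdx5 was nearest to Sdhb, another subunit of succinate dehydrogenase (0.05, own spread 0.18), then to Ndufs8 of complex I and Atp5h of ATP synthase. Prdx3 was nearest to Mpp6, Glo1 and Sdhc. Sod2 was nearest to Immt, which shapes the inner mitochondrial membrane (0.07, own spread 0.12), then to Rnf11 and Mpv17 (both 0.07). Among the 10, the closest pair was Prdx1 and Prdx3 (0.07).

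For Gpx3 the nearest genes were Ciapin1, the lysosomal protease gene Ctsl and Mrpl27, all at 0.10 to 0.11 against a spread of Gpx3 itself of 0.22, and the nearest member was Gpx1 at 0.16. Gpx4 was nearest to Timm13 and Pigyl (both 0.11, own spread 0.31) and to the ribosomal protein gene Rps15. These 3 genes were high in Gcgr shRNA 31, at 155.7, 71.0 and 888.6 FPKM against medians of 88.0, 40.6 and 534.8 FPKM in the other libraries of that group. Gpx4 deviated most in that library, so genes picked for nearness to its profile would be high there in any case. Gpx1 was nearest to BC004004, Atp6v1e1 and Chchd10. The nearest genes were Aldh9a1, Suclg2 and Etfrf1 for Cat, Adh5, Iah1 and Ndufaf1 for Sod1, and Cdhr5, Epn1 and Pafah2 for Sod3.

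Genes that feed or accompany these enzymes were followed as 9 lists. Of all tested genes, 3.58% were higher and 3.91% lower in Ctr shRNA than in control. In the libraries labelled Gcgr shRNA against control these shares were 1.42% and 0.595%, and between the shRNA groups 0% passed. With lists this short, the counts below are not read as results about a list. Among 8 other peroxidases and helpers tested, 1 was lower and none higher in Ctr shRNA than in control, and the median log2 fold change was 0.14. The gene that fell was Gpx6, the family member with the cysteine codon shown above. It was at 10.2, 10.4, 14.8, 14.5, 18.7, 13.01 and 17.5 FPKM in the libraries labelled Gcgr shRNA, at 11.4, 8.32, 5.73, 6.15, 10.1 and 4.03 FPKM in Ctr shRNA, and at 13.8, 18.5, 18.4 and 25.2 FPKM in control. All Ctr shRNA libraries lay below all control libraries, and the log2 fold change was -1.25 ± 0.23 (SE) with an adjusted p of 0.00361 by limma. Between the libraries labelled Gcgr shRNA and Ctr shRNA the groups overlapped, with a log2 fold change of 0.85 and an adjusted p of 0.20. In Ctr shRNA the mean of Gpx6 was below that of control and the mean of Gpx3 above it, though the Gpx3 difference did not pass.

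Among 17 genes of thioredoxin and glutathione recycling, 2 were higher and none lower in Ctr shRNA than in control, with a median of 0.16. Glrx3, a glutaredoxin that binds iron-sulfur clusters, ran from 17.8 to 22.4 FPKM with a mean of 19.5 in the libraries labelled Gcgr shRNA, from 16.6 to 22.1 with a mean of 20.1 in Ctr shRNA, and stood at 14.3, 14.4, 13.8 and 14.9 in control. Both shRNA groups lay above all control libraries, with log2 fold changes of 0.42 (adjusted p = 0.00937, limma) for the libraries labelled Gcgr shRNA and 0.45 (adjusted p = 0.00311, limma) for Ctr shRNA. Glrx3 was the single gene of the 9 lists to pass in the libraries labelled Gcgr shRNA against control, and it passed in both comparisons under all 29 alternatives. Sesn3, a stress-induced sestrin, averaged 5.08 FPKM in Ctr shRNA and 2.53 FPKM in control (adjusted p = 0.0224, limma). Ctr shRNA 20 alone was at 9.91 FPKM of Sesn3, and without it the log2 fold change was 0.53 in place of 0.71 (adjusted p = 0.00274, limma). Leaving out any single control library ended the call of Sesn3, at adjusted p-values of 0.0528 to 0.0661 by limma. So did equal FPKM totals (0.0784), equal totals without the top 50 genes (0.0503), no filter (0.0610) and a fit of only the 2 groups (0.0756). Without Ctr shRNA 20, 3 genes of this list were higher.

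Targets of the antioxidant transcription factor NRF2 were 3 higher and none lower of 14 tested in Ctr shRNA against control, with a median of 0.16. Gsta2, a glutathione S-transferase, ran from 108 to 224 FPKM with a mean of 141 in the libraries labelled Gcgr shRNA, from 132 to 308 with a mean of 199 in Ctr shRNA, and stood at 84.0, 76.3, 68.3 and 100.3 in control. Both shRNA groups cleared the control range, but by limma Gsta2 passed in Ctr shRNA (log2 fold change 1.22, adjusted p = 0.00403) and not in the libraries labelled Gcgr shRNA (0.75, adjusted p = 0.0988). Tkt, transketolase of the pentose phosphate pathway, rose by 0.30 to 39.2 FPKM in Ctr shRNA, against 31.5 FPKM in control. Gsta1 passed at very low levels, with means of 1.52 FPKM in Ctr shRNA and 0.271 FPKM in control. Tkt lost its call without control 37 or 38, at adjusted p-values of 0.0644 and 0.0813 by limma. It also lost it at equal FPKM totals (0.0961), at equal totals without the top 50 genes (0.0530) and with only the 2 groups in the fit (0.0593). Gsta1 lost it without control 37 or 38 or without Ctr shRNA 1, 4 or 6, at adjusted p-values of 0.0593 to 0.102 by limma. Without a filter on low values its adjusted p was 0.0768 by limma. With voom on the recovered reads Gsta1 did not pass either (adjusted p = 0.103), while its log2 fold change was 2.58 in place of 0.95. In the libraries labelled Gcgr shRNA against control no NRF2 target passed, and their median was 0.05. None of these 14 genes passed between the shRNA groups, where their median was -0.15.

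Glutathione synthesis had 1 lower and none higher of 6 tested in Ctr shRNA against control, with a median of -0.20. That gene was Cbs, which starts the route from homocysteine to cysteine, with means of 54.4 FPKM in the libraries labelled Gcgr shRNA, 41.2 FPKM in Ctr shRNA and 71.5 FPKM in control (log2 fold change -0.84 in Ctr shRNA against control, adjusted p = 0.0173, limma). Without control 37 or 38 the adjusted p of Cbs was 0.0523 or 0.0622 by limma, and with only the 2 groups in the fit it was 0.0540. Of 7 genes of copper, zinc and manganese supply, 1 was higher and 1 lower. Atox1, which hands copper to transporters, averaged 252 FPKM in the libraries labelled Gcgr shRNA, 287 FPKM in Ctr shRNA and 208 FPKM in control (adjusted p = 0.0416 in Ctr shRNA against control, limma). Slc39a8, a zinc and manganese importer, averaged 8.40 FPKM in the libraries labelled Gcgr shRNA, 6.25 FPKM in Ctr shRNA and 11.1 FPKM in control (adjusted p = 0.0240 in Ctr shRNA against control, limma). Slc39a8 lost its call without any single control library (adjusted p of 0.0510 to 0.0677, limma). Atox1 lost it likewise (0.0641 to 0.125) and without Ctr shRNA 1, 4, 6 or 8 (0.0568 to 0.0752). The dismutases that use these metals, copper and zinc in Sod1 and Sod3 and manganese in Sod2, did not pass. Of the 3, Sod3 alone had an unadjusted p under 0.05 in this comparison. With only the 2 groups in the fit and without a filter, Slc39a8 (0.0706 and 0.0640) and Atox1 (0.108 and 0.0938) also lost their calls by limma's adjusted p.

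Of 12 peroxide-making oxidases tested, 1 was lower and none higher in Ctr shRNA than in control. It was Acox3, a peroxisomal acyl-CoA oxidase, at 27.3 FPKM in Ctr shRNA and 38.4 FPKM in control (adjusted p = 0.0491, limma), and it lost that call under 18 of 29 alternatives, 14 of them with a single library left out. Without Ctr shRNA 20, 1 gene of this list was higher and none lower. None passed among 11 genes of selenium supply and selenoprotein synthesis (median -0.13), 6 NADPH oxidase genes (median 0.27) and 17 peroxisome genes (median -0.04). At an unadjusted p under 0.05 stood 1 of 11, 3 of 6 and 3 of 17 genes of these lists, against 23.4% of all tested genes. When Ctr shRNA 20 was left out, 1 peroxisome gene was higher. Selenop, which carries selenium to the kidney, averaged 666 FPKM in the libraries labelled Gcgr shRNA and 581 FPKM in Ctr shRNA, a difference that did not pass. Between the shRNA groups no gene of any of the 9 lists passed, where 0% of all tested genes did.

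**Figure D5:**
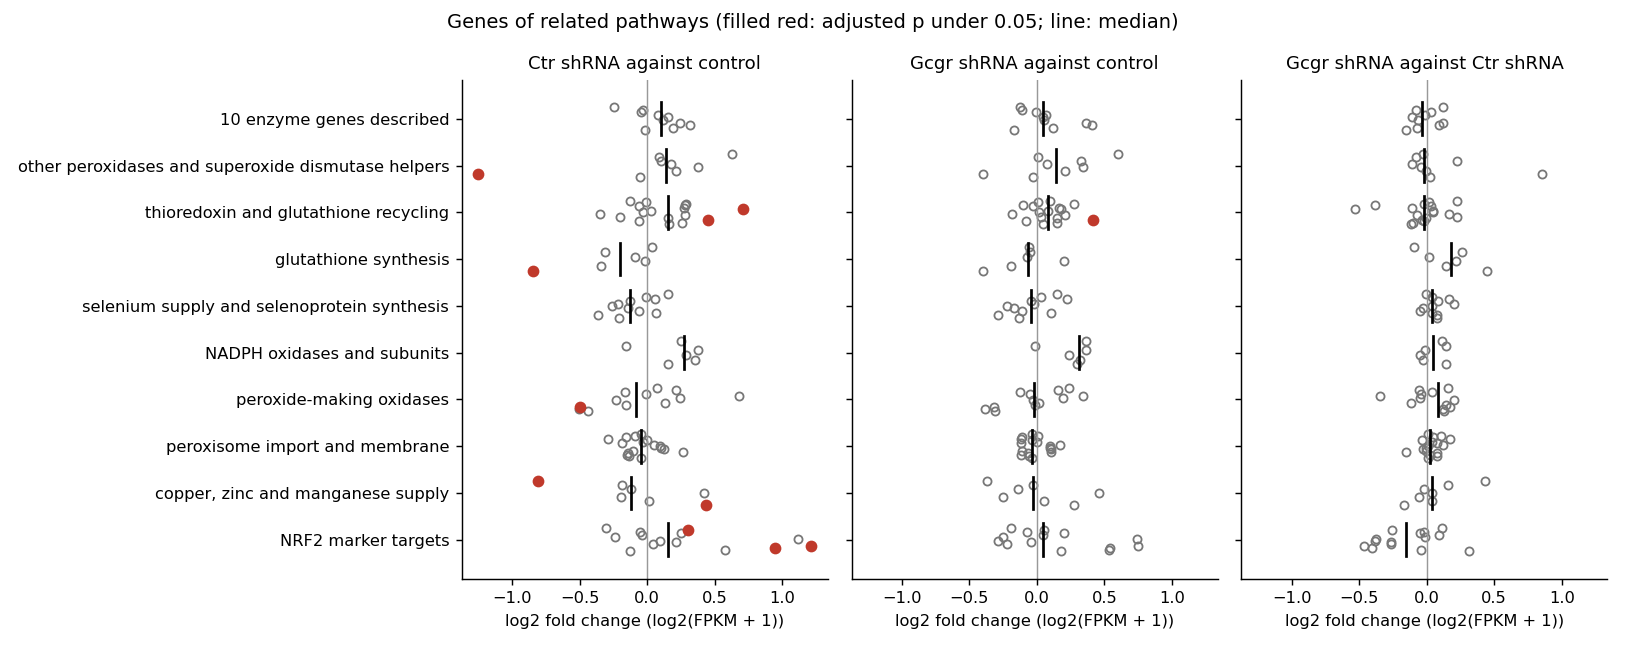
Log2 fold change on the log2(FPKM + 1) scale (horizontal axis) of each tested gene of the 9 lists and of the 10 enzymes, in 3 panels by comparison, with filled red points for an adjusted p under 0.05 and a line at each list's median. The passing points are nearly all in the panel of Ctr shRNA against control, with Gpx6 furthest left at -1.25 and Gsta2 furthest right at 1.22.

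Promoter sequence was available for 9 of the 10 genes from RefSeq (GRCm38.p6, 250 bases before to 50 bases after the start). Motifs were searched on both strands. The core letters of the antioxidant response element, TGACNNNGC, to which NRF2 binds, were present in the windows of Prdx1 and Sod1, that is 2 of 9, against 13.99% of 27025 genes. All 9 held the GC box GGGCGG, against 38.2% of genes. TATAAA was present in Sod1, Prdx1 and Prdx3, against 15.67% of genes. The stretches printed here, on the strand of each gene with the motif in capitals, are those of the members where both the response element and TATAAA occur, beside a GC box of Gpx3. Base counts are from the RefSeq start that sets each window, which is not the gene start of the deposited table, and the element lies on the reverse strand in both genes.
Prdx1, response element core, 133 to 125 bases before the start: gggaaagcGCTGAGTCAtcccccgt
Prdx1, TATAAA: ttgtaggcTATAAAagcagctc
Sod1, response element core, 56 to 48 bases before the start: caaggtggGCGTGGTCAgactcagg
Sod1, TATAAA: ctcaggccTATAAAagctccgt
Gpx3, GC box: ggaaaaagGGGCGGgtatgtct
The windows lie at chr4:116685349-116685648 for Prdx1, chr16:90220512-90220811 for Sod1 and chr11:54902604-54902903 for Gpx3, all on the plus strand. The differences of Prdx1 and Sod1, whose windows hold the response element core, were 0.12 and -0.04 on the log2 scale in Ctr shRNA against control, and neither passed.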

How the data were processed

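Per the labels' protocols, Trizol RNA from kidney went into SMARTER mRNA-Seq libraries. The authors deposited FPKM values in 1 table, which per its header also has the length and position of each gene. GRCm38 and mm10 are listed per the submitters' processing notes. No source used here states the aligner, counter, annotation release or strand use. The table held 42794 complete lines, 1 incomplete line was left out, and 31784 genes were above 0. Of its gene IDs, 42741 were found in GENCODE M21, and 41932 (98.1%) had the same coordinates.

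Reads were recovered from FPKM times gene length: below 200 reads, 100% of values came out whole, within 0.05 of a read. Values were taken to log2(FPKM + 1), so changes at low levels are understated. The 13279 genes that reached an FPKM of 1 in 4 or more libraries were tested with limma 3.58.1 (limma-trend, R 4.3.3) in 1 model of all 3 group means, with Benjamini-Hochberg adjustment over all of them and a threshold of 0.05. Intervals are 95% intervals of that fit. Folds are differences of means on that scale.

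Copies were sought with BLAST 2.17.0 (at least 95% identity over 100 bases). Codon windows and lengths come from GENCODE M21, with the Gpx6 window placed by likeness to that of Gpx3. Named are the 10 genes, up to 3 passing genes per list and comparison (or at most 1 where none passed), the 3 genes nearest to each member's profile, and Gcgr. The genes around Gcgr shRNA 31, the sequences, Selenop and Gpx4-ps2 were chosen with values seen. The members and lists were chosen with earlier results of these data known. 1 listed symbol, Ero1a, had no line under that name. The steps were tested on simulated data. Alternatives covered pseudocount, filter, scaling, variance model, groups in the fit, recovered reads (limma voom), each library left out, and, chosen after seeing the data, Gpx4 with the reads of its copy. A further alternative left out Ctr shRNA 20 and Gcgr shRNA 31 together, and these libraries were picked from the same data.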

Additional observations from a re-analysis of the deposited data

Results flagged for a closer look

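Each of the 10 genes was checked for a library far from the rest of its group in the 2 groups of 6 and 7 libraries, and the control group of 4 was checked likewise. Of 30 such checks, 2 stood out by Dixon's 95% criterion, where chance gives about 1 in 20, so the count is near that of chance. Gpx4 was at 1070.5 FPKM in Gcgr shRNA 31, with the next library at 656 FPKM, a gap of 0.669 of the group's range. Cat was at 282.8 FPKM in Ctr shRNA 20, with the next library at 407 FPKM, a gap of 0.634 of the range. No cause was tested for either value.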

How the results depend on the processing

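No paired analysis was possible because the groups share no replicate numbers. The count of members passing was 0 in all 3 comparisons, and 1, Gpx3, in Ctr shRNA against control with weights per library and when Ctr shRNA 20 and Gcgr shRNA 31 were both left out. The same held in the libraries labelled Gcgr shRNA against control with weights per library and with only the 2 groups compared. With each library left out in turn it ran from 0 to 1 (1 without Ctr shRNA 20) in Ctr shRNA against control, from 0 to 0 between the shRNA groups and from 0 to 1 (again 1 without Ctr shRNA 20) in the libraries labelled Gcgr shRNA against control. Over all alternatives the adjusted p of Gpx3 by limma ran from 0.0161 to 0.938, from 0.705 to 1 and from 0.0116 to 0.928 in that order of comparisons. It was highest without a filter. That fit took in 31784 genes, but the reason for the high adjusted p of Gpx3 in it was not tested.

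Of 873 single-gene values under alternatives, 833 kept their direction and side of the threshold, 6 newly passed, all for Gpx3, and 34 changed sign, none of them past the threshold. In Ctr shRNA against control the sign turned for Cat (0.0340 with weights, 0.0962 without both libraries), Sod1 (0.0219) and Sod2 (0.0280, both without both libraries). Between the shRNA groups it turned for Sod1 (-0.0126 at equal FPKM totals, -0.0331 without both libraries), Gpx3 (-0.00857) and Gpx4 (-0.0589, both without both libraries). In the libraries labelled Gcgr shRNA against control it turned for Prdx1 (-0.00131) and Prdx3 (-0.0117) at equal totals, Prdx3 (-0.00179) at equal totals without the top 50 genes, and Sod1 (0.00589 with weights). With 1 library left out at a time, the ranges that cross 0 in Ctr shRNA against control were -0.0556 to 0.0962 for Cat, -0.137 to 0.0219 for Sod1 and -0.0623 to 0.0280 for Sod2. Between the shRNA groups they were -0.0106 to 0.197 for Gpx4, -0.0324 to 0.127 for Sod1, -0.157 to 0.00498 for Prdx1 and -0.0697 to 0.0511 for Prdx5. In the libraries labelled Gcgr shRNA against control they were -0.0573 to 0.0355 for Sod1 and -0.00875 to 0.0720 for Prdx3. The causes were not tested.

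The 994 genes passing in Ctr shRNA against control became 597 without a filter, 2087 with weights, 658 without Ctr shRNA 4, and 490, 480 and 458 without control 37, 38 and 39. The 268 in the libraries labelled Gcgr shRNA against control became 155 without a filter, 154 at a mean of at least 5 FPKM, 438 with only the 2 groups, 1070 with weights, 166 and 171 without Gcgr shRNA 13 and 35, and 136, 115 and 105 without control 37, 38 and 39. There 70.5% of calls were higher (189 higher, 79 lower), but 54.1% at equal FPKM totals (133 higher, 113 lower) and 58.3% with weights.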
